A study of Mus musculus with 28 samples.

Results

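The genes described here encode the proteins of the cytosolic ribosome, measured in splenic CD4+ T cells before and during stimulation through the T cell receptor complex. A gene was taken as a member when its single symbol on the platform was Rpl or Rps followed by a digit, or Rpsa, Rplp0, Rplp1 or Rplp2, with the Rps6k kinases and symbols containing -ps left out. The rule found 72 of the 17097 genes tested. Of these, 24 encode canonical proteins of the small subunit, 41 encode canonical proteins of the large subunit, and 7 carry the name of a ribosomal protein without being one of the canonical set: Rpl7l1, Rpl22l1, Rpl36al, Rpl39l, Rpl3l, Rps27l and Rps19bp1. Canonical genes that the rule did not reach were not analysed here. Each member was read through its brightest probe set, chosen from 135 probe sets, and 38 of the 72 members had only 1.

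The cells came from female mice aged 12 weeks of 3 strains. C57BL/6 is the common inbred strain, B6.Sle1b carries the lupus-associated Sle1b interval on that background, and Sle1b.BACSlamf6-H1, written Sle1b.BAC below, adds to B6.Sle1b a bacterial artificial chromosome transgene with the H1 form of Slamf6. The founder lines and the cells that express the transgene are not given in the sources used here. Cells were left without stimulation or placed on plates coated with 0.1 µg/ml of an anti-CD3 antibody for 4 h or 24 h, with no costimulatory antibody named, which gave 9 groups and 26 arrays titled biological. Each group held 3 arrays, except C57BL/6 at 24 h with 2. The labels add 2 arrays titled technical to that group, which entered alternatives only. Nothing in the labels ties the samples of a group to different mice. The p-values therefore reflect only how far these samples varied, part of which may be technical.

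A cytosolic ribosome joins a small subunit, which reads the messenger RNA, to a large subunit, which forms the peptide bond, and each subunit is built in the nucleolus from ribosomal RNA and a fixed set of proteins. Resting T cells are small and translate little, and stimulation through CD3 starts growth, during which the cell makes more ribosomes. Messenger RNAs of ribosomal proteins are abundant and long-lived and begin with a run of pyrimidines, the terminal oligopyrimidine (TOP) tract, through which the mTORC1 kinase and the RNA-binding protein LARP1 control their translation and stability. Part of their control therefore lies outside the abundance that an array measures.

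The starts of these genes are shown first because a run of pyrimidines near the annotated start is a sequence feature that most members with an entry share. RefSeq sequence of build GRCm38.p6 from 250 bases before to 50 bases after the annotated start was at hand for 58 of the 72 members. A C followed by at least 7 further C or T on the gene's strand, within 25 bases before and 50 bases after the start, was found in 45 of the 58 (77.6%), against 24.3% of the 27025 genes of the table. In the following lines the run is in capitals, 5′ to 3′ on the gene's strand, with members that rose at 24 h first and members that fell after them; windows lie up to 50 bases after the annotated start, so part of the printed bases can lie in the first exon. The run is not shown to be the TOP tract, which begins at the first base of the messenger RNA: 11 of the 45 runs began within 5 bases of the annotated start, 24 further after it and 10 further before it. Of those printed, Rpl7a begins 12 bases and Rpl15 4 bases before that start, and the others 26 to 42 bases after it.
Rps2, chr17:24720083-24720112, + strand: aaattgtcccttccgcggcgCCTCCCTCTT
Rpl7a, chr2:26910787-26910816, + strand: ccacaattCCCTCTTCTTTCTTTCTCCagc
Rpl15, chr14:18270969-18270998, - strand: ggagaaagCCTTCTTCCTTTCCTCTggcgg
Rpl41, chr10:128549119-128549148, - strand: cgccattaaatagcagtaggCCTCCCTCTC
Rps19, chr7:24884612-24884641, + strand: cgcccgggaaaccccgtcgttCCCTTTCCC
Rps15, chr10:80292448-80292477, + strand: agcccgtaCTTCCTTTTCCgagtaaccgcc
Rpl19, chr11:98026944-98026973, + strand: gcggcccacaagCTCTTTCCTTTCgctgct
Rpl12, chr2:32961732-32961761, + strand: ggaggaggcaacggtgcaaCTTTCTTCggt

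The run was found in 6 of 7 canonical members that rose at 24 h and had a promoter entry, in 8 of 9 that fell and in 26 of 35 that were not called. Members of each direction held it. Of the 7 members outside the canonical set, 5 held the run, and the 2 without it were Rpl7l1 and Rps19bp1. Their annotated starts follow, with the start base in capitals and 10 bases before it.
Rpl7l1, chr17:46782637-46782666, - strand: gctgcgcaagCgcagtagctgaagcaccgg
Rps19bp1, chr15:80264287-80264316, - strand: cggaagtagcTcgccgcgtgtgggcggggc
The ETS-factor motif CCGGAAG, searched on both strands over the whole 300 bases with overlaps with other motifs allowed, was found in 25 of the 58 members (43.1%) and in 9.93% of all genes of the table. The YY1 motif AAGATGGC, searched the same way, was found in 5 members (8.62%), Rpl13a, Rpl22, Rpl35a, Rpl7l1 and Rps15a, and in 3.19% of all genes. Rps2 is shown as a member with both the run and an ETS motif, which is in capitals here upstream of the start.
Rps2, chr17:24719924-24719963, + strand: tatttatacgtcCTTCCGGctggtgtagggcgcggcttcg

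Ribosomal protein probe sets were among the brightest on every array. Values are log2 of the deposited intensity, so a difference of 1 is a 2-fold change in intensity. The mean over the 26 arrays was above 12 for 63 members, between 6 and 12 for 6 and at or under 6 for 3, whereas the highest value on any array was 13.4 to 13.6. Counting all 135 probe sets of members, they made up 50 to 58 of the 100 brightest sets of each biological array. The brightest sets of the 72 members alone held 9.09% to 10.3% of the summed intensity of all sets. That share had a median of 9.35% in the 9 unstimulated arrays, 9.44% in the 9 arrays at 4 h and 9.45% in the 8 arrays at 24 h, with ranges that overlapped throughout. The median member stood between 12.78 and 12.88 on every array. Brightness also depends on a set's probes, so members are compared with themselves across samples and not with each other.

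Some members could not be read at these levels. Rpl3l, the striated-muscle form of Rpl3, was at background in all 9 groups, between 1.85 and 2.73, where background, the 95th percentile of 23 non-specific control probe sets, was 2.76 to 3.21. The only single-symbol probe set of Rps15a averaged 3.26, next to background, so its values say little about a canonical small subunit protein. The probe set of Rpl14 was dim for a canonical member as well, between 6.02 and 7.58.

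The arrays shared features that touch members. On 3 arrays outside the 24 h groups, C57BL/6 unstimulated 2, B6.Sle1b unstimulated 3 and Sle1b.BAC 4 h 2, the 75th percentile of intensity was 34.2 to 35.6, the lowest outside the 24 h groups, where B6.Sle1b 24 h 3 was as dim at 35.6. These 3 also had the largest member shares, 10.1% to 10.3%. Within their groups they held the highest values of Rps27l (10.58, 10.41 and 10.68) and of Rpl22l1 (12.43, 12.30 and 12.32), and the lowest of Rps2 (12.55, 12.53 and 12.40) and Rplp2 (12.69, 12.64 and 12.73). Counts of members without these 3 arrays are given beside the results. The share of all genes called without them was not counted.

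**Figure D1:**
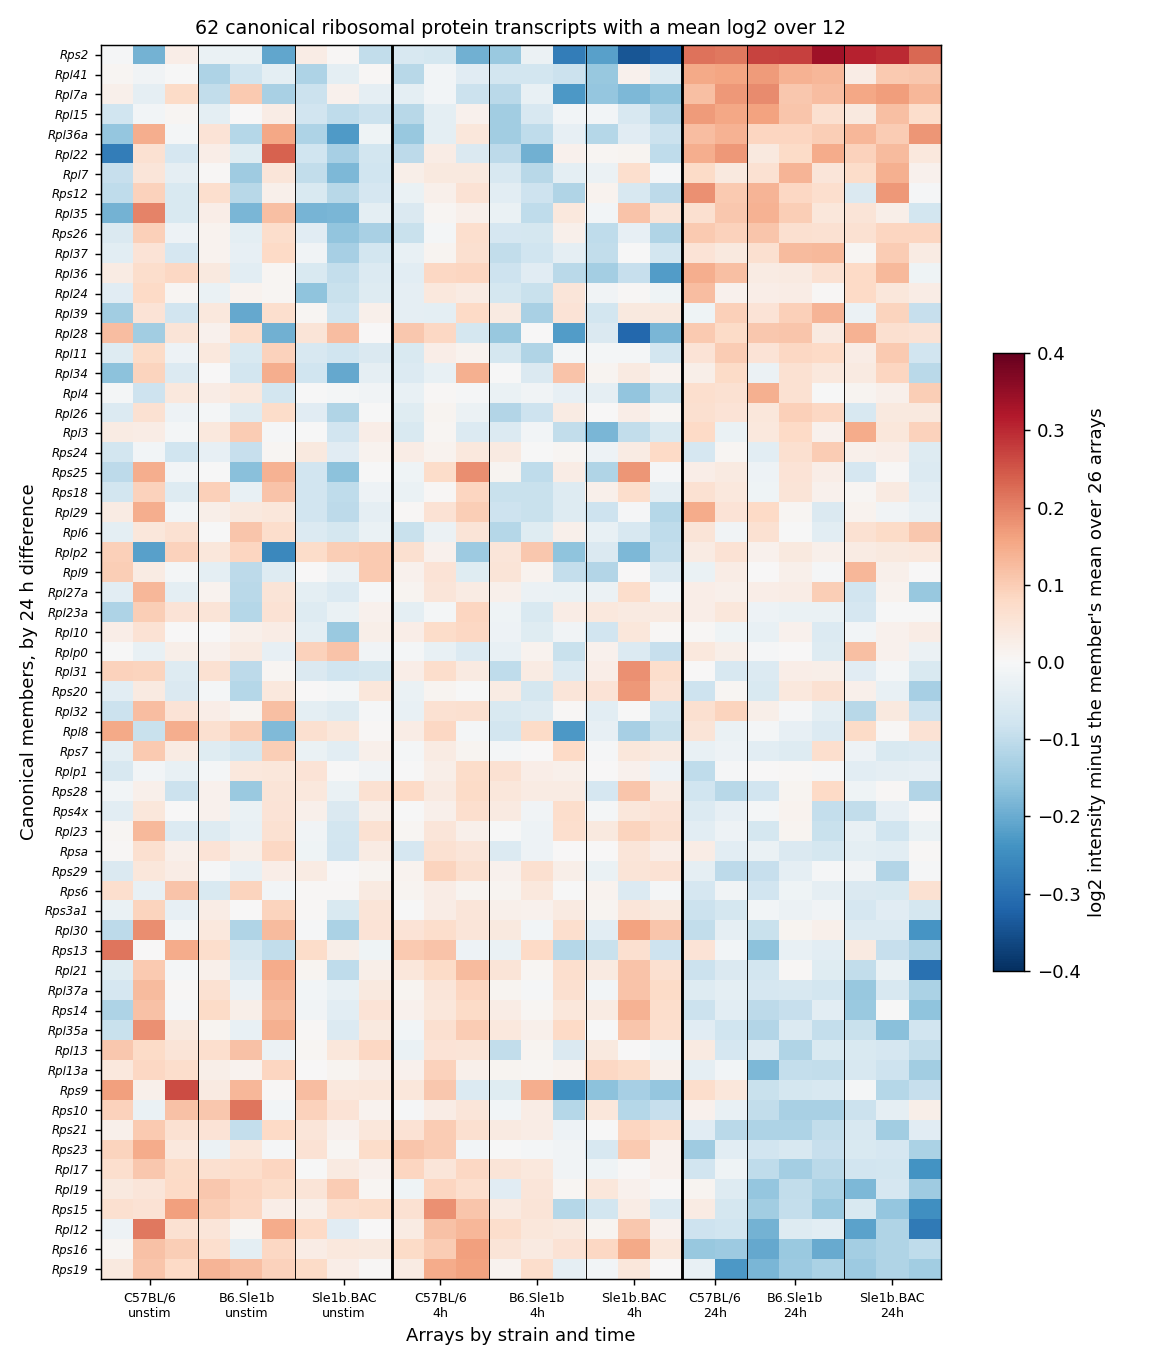
Heat map of the 62 canonical members with a mean log2 over 12 (rows, ordered by the 24 h difference) on 26 arrays (columns, by time and strain). Colour is log2 intensity minus the member's own mean, from -0.4 (blue) to 0.4 (red). The 24 h columns differ from the others mainly in the top and bottom rows, from Rps2 at the top (24 h difference 0.32) to Rps19 at the bottom (-0.22).

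The comparison of 4 h with unstimulated cells asked whether ribosomal protein transcripts moved early in activation. Over the mean of the 3 strains 2 of 72 members were called (limma, adjusted p under 0.05 over all genes), against 18.2% of all genes tested. Rpl7l1 rose, against 8.15% of all genes, and Rpl14 fell, against 10.1%. The median difference of members was -0.002 log2 and that of all genes was 0.02. None of the 62 canonical members with a mean log2 over 12 was called, and their differences ran from -0.15 to 0.06. Of the 87 genes of that brightness 63 are members. Among the 87, 8 were called (9.2%), all of them outside the member set. At an unadjusted p under 0.05, 5 of 72 members passed (6.94%), against 27.4% of all genes.

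Rpl7l1 encodes a protein related to large subunit protein Rpl7. Its 9 unstimulated arrays ran from 6.76 to 7.18 with a median of 6.88, and the 9 arrays at 4 h from 7.27 to 7.63 with a median of 7.38. The ranges did not overlap. The difference was 0.48 ± 0.07 log2 (SE), a 1.40-fold rise, with an adjusted p of 1.6e-05. It was called within each strain, by 0.49 in C57BL/6 (adjusted p = 0.0122), 0.44 in B6.Sle1b (adjusted p = 0.0284) and 0.52 in Sle1b.BAC (adjusted p = 0.00563). In these strains 1, 1 and 2 members were called, against 7.04%, 5.69% and 10.6% of all genes. All were rises, which 4.08%, 2.57% and 4.22% of all genes showed, and none fell, against 2.97%, 3.12% and 6.35%. Of the other probe sets of Rpl7l1, that with a mean of 7.41 gave 0.47 over the mean of the strains. The dimmest, with a mean of 4.75, gave 0.03 and was not called (limma over all probe sets, adjusted p = 0.949).

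Rpl14, a canonical large subunit protein, stood at 6.39 to 7.18 unstimulated (median 6.64) and at 6.02 to 6.96 at 4 h (median 6.31), with overlapping ranges. The difference of -0.29 ± 0.09 (SE) had an adjusted p of 0.0202. The call was lost when the 3 dim arrays were left out (-0.23, adjusted p = 0.0523) and after a further quantile normalisation (-0.20, adjusted p = 0.27).

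Rps27l missed the threshold at 4 h by little, at 0.34 ± 0.12 (SE) with an adjusted p of 0.0593. Its 3 arrays of Sle1b.BAC at 4 h read 10.18, 10.68 and 10.22, all above the unstimulated 9.54, 9.60 and 9.86 of that strain (0.69, adjusted p = 0.0373). It was called over the mean of the strains without the 3 dim arrays (0.43, adjusted p = 0.00148), and so were Rps2 (-0.16, adjusted p = 0.028) and Rps9 (-0.18, adjusted p = 0.0291), which made 2 rises and 2 falls. Leaving out C57BL/6 unstimulated 2 alone gave 2 rises and 3 falls. The second rise appeared as well without B6.Sle1b unstimulated 1 or 3, Sle1b.BAC unstimulated 3 or Sle1b.BAC 4 h 1, and a second fall without B6.Sle1b unstimulated 3 or B6.Sle1b 4 h 2.

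At 24 h the largest rises were those of Rpl7l1, Rps27l and Rps19bp1, outside the canonical set. Shifts of canonical members went in both directions and, apart from Rpl14, were smaller. These 3 and Rpl14 were read at a mean log2 of 7.49, 10.39, 7.61 and 6.77, below most canonical members. Whether class or brightness goes with the size of a shift was not tested. Over the mean of the 3 strains 22 of 72 members were called (30.6%), against 40.4% of all genes. Of these 12 rose (22.9% of all genes did) and 10 fell (17.4% of all genes did). The median over members was 0.01 log2 and that over all genes 0.06. In the canonical set 8 of 65 rose and 10 fell, and outside it 4 of 7 rose and none fell. Among the 87 genes with a mean log2 over 12, of which 63 are members, 33 were called (37.9%). Of these 33, 17 were members (27% of the 63).

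The 2 subunits are described by their counts. Of 24 small subunit members 1 rose, Rps2, and 5 fell, Rps15, Rps16, Rps19, Rps21 and Rps23. Of 41 large subunit members 7 rose, Rpl7, Rpl7a, Rpl14, Rpl15, Rpl22, Rpl36a and Rpl41, and 5 fell, Rpl12, Rpl13, Rpl13a, Rpl17 and Rpl19. The median difference was -0.06 over the 23 bright small subunit members, 6 of which lay above 0, and 0.02 over the 39 bright large subunit members, 22 of which lay above 0. Whether the subunits differ was not tested.

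**Figure D2:**
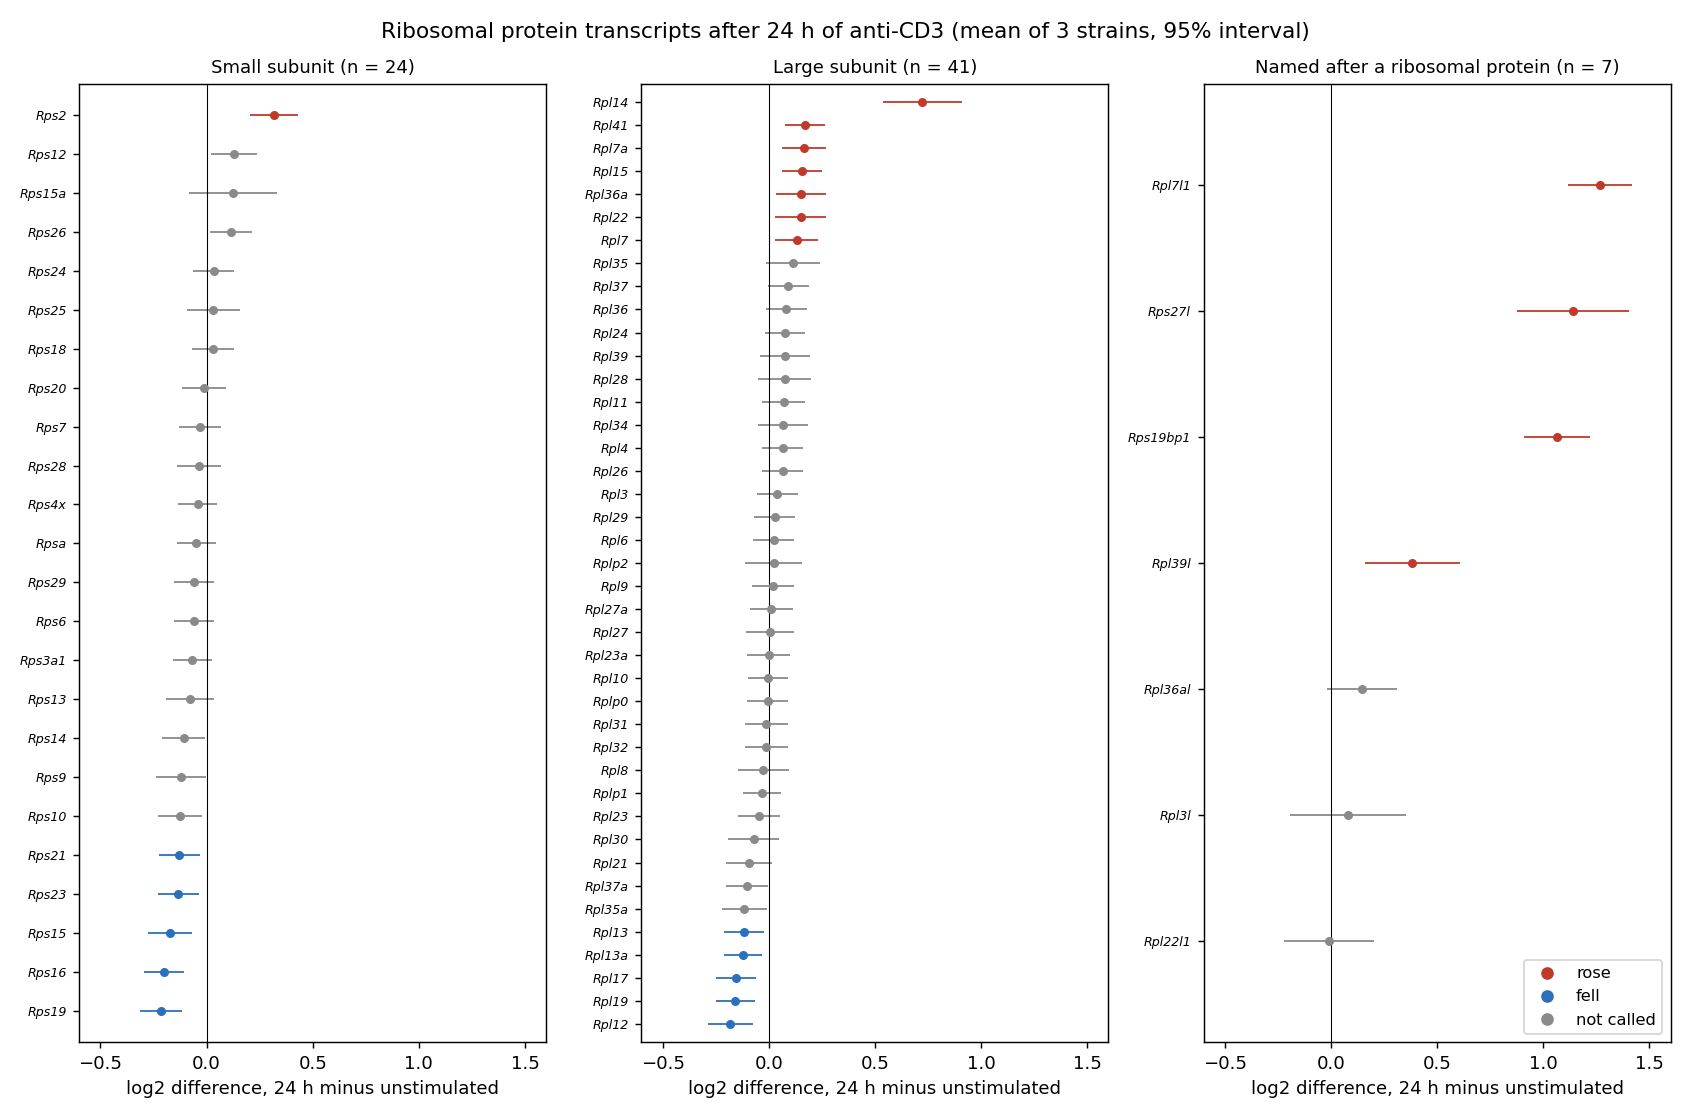
Log2 difference between 24 h and unstimulated cells for all 72 members by class, over the mean of the 3 strains, with 95% intervals. Colour marks members that rose, fell or were not called (limma, adjusted p under 0.05). Rpl7l1, Rps27l and Rps19bp1 lie above 1, and canonical members other than Rpl14 and Rps2 lie between -0.22 and 0.17.

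Of all members Rpl7l1 differed most at 24 h. The 8 arrays at 24 h ran from 7.99 to 8.30 with a median of 8.24, above every array at 4 h and every unstimulated array. The difference was 1.27 ± 0.07 log2 (SE), a 2.41-fold rise, with an adjusted p of 1.61e-12. The strains gave 1.2, 1.21 and 1.39 in the order C57BL/6, B6.Sle1b and Sle1b.BAC. The other probe sets of Rpl7l1 gave 1.23 and 0.87. Rpl7, the canonical protein it resembles, rose by 0.13 ± 0.05 (SE, adjusted p = 0.0333), a call that was kept in 18 of the 26 fits that each left out 1 array.

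Rps27l, a p53-responsive relative of small subunit protein Rps27, ran from 9.54 to 10.58 in unstimulated cells (median 9.86), from 10 to 10.68 at 4 h (median 10.22) and from 10.93 to 11.30 at 24 h (median 11.01). All 8 arrays at 24 h lay above all others, and the unstimulated arrays were the most spread. The difference was 1.14 ± 0.13 (SE), a 2.21-fold rise, with an adjusted p of 9.6e-08. Its 3 probe sets gave 1.14, 1.15 and 1.28.

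Rps19bp1 encodes a nucleolar protein that binds Rps19 and is also known as an activator of the deacetylase SIRT1. It stood at 7.11 to 7.49 in unstimulated cells (median 7.28), at 7.05 to 7.59 at 4 h (median 7.29) and at 8.14 to 8.58 at 24 h (median 8.35). Values at 4 h overlapped the unstimulated ones, and those at 24 h lay above both. The difference at 24 h was 1.06 ± 0.08 (SE), a 2.09-fold rise, with an adjusted p of 6.36e-11. Rps19, its binding partner, was the member that fell most at 24 h.

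Rpl39l, a relative of Rpl39 known from testis, was dim. Its arrays ran from 4.58 to 5.34 in unstimulated cells and from 5.05 to 5.70 at 24 h, with overlap, and the difference was 0.38 ± 0.11 (SE, adjusted p = 0.00592). Rpl39 itself differed by 0.08 (95% interval -0.04 to 0.19) and was not called. Rpl36al, a near copy of Rpl36a, differed by 0.15 (95% interval -0.02 to 0.31, adjusted p = 0.164), while Rpl36a rose by 0.15 (adjusted p = 0.0374).

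Rpl22l1 and Rpl22 are paralogues with known roles in T cell development. Rpl22l1 ran from 11.54 to 12.43 in unstimulated cells, from 11.86 to 12.32 at 4 h and from 11.82 to 12.09 at 24 h. The 24 h range lay inside the unstimulated one, and the difference was -0.01 (95% interval -0.22 to 0.20). Rpl22 rose by 0.15 ± 0.06 (SE, adjusted p = 0.0454), and the call held in 8 of the 26 fits without 1 array. Its direction depended on the probe set. With the mean of its 2 probe sets Rpl22 was called as a fall at 24 h (limma, -0.36, adjusted p = 6.9e-05) and at 4 h (-0.22, adjusted p = 0.014).

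**Figure D3:**
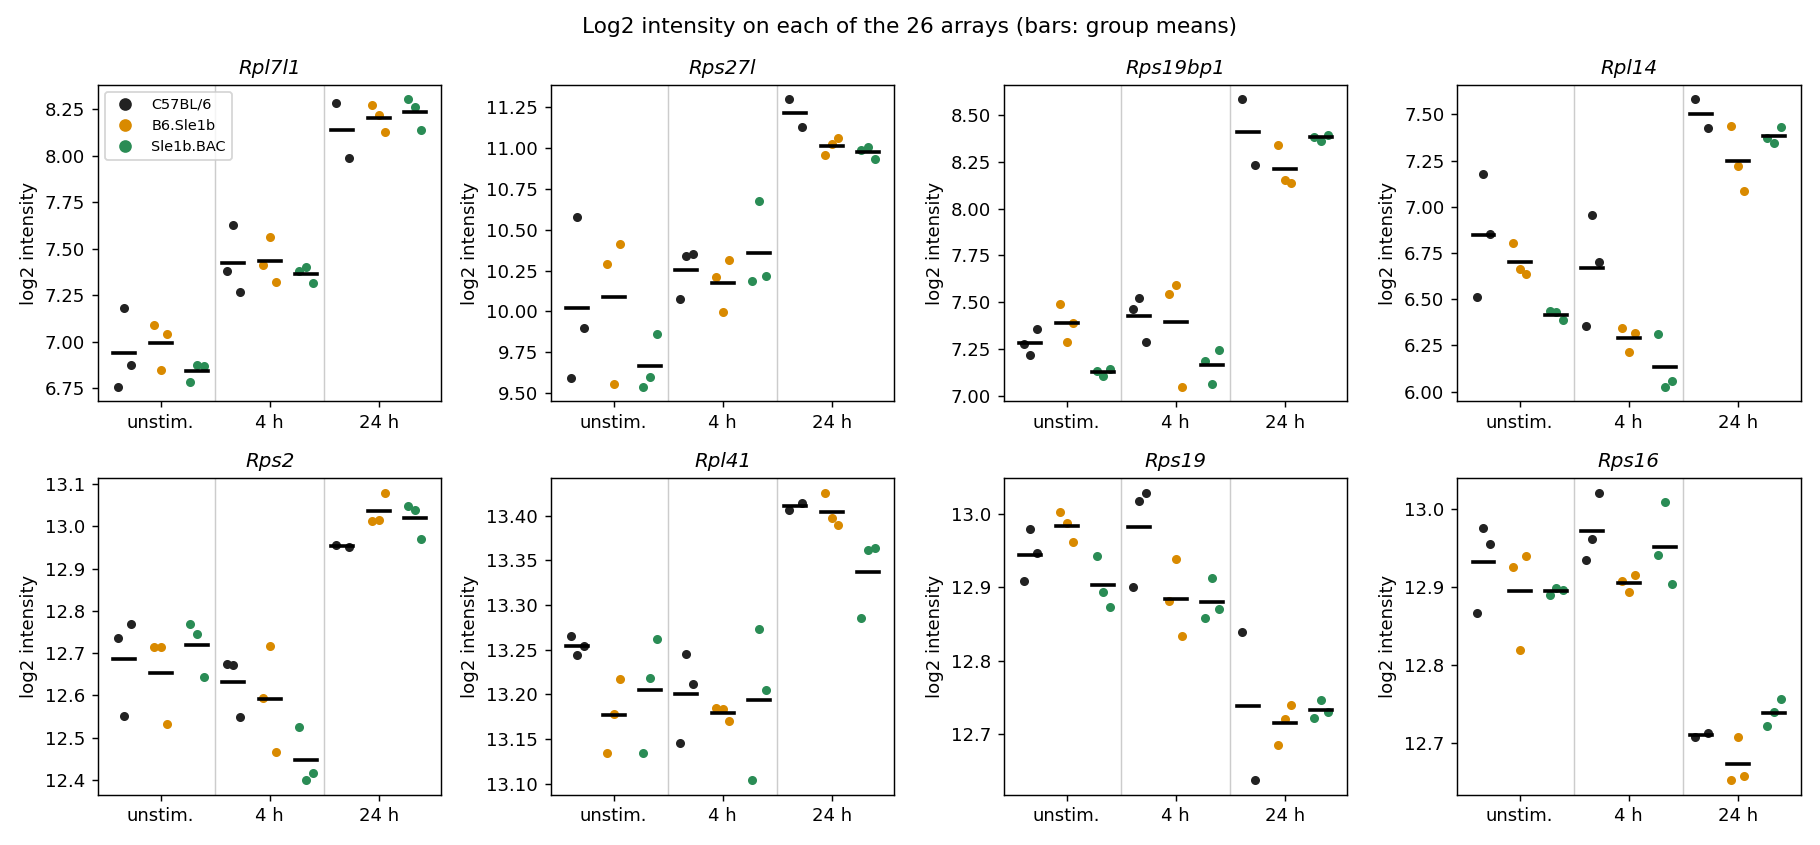
Log2 intensity of 8 members on each of the 26 arrays, by time and strain, with group means as bars. In the panels of Rpl7l1, Rps27l, Rps19bp1, Rps2 and Rpl41 the 24 h arrays lie above all unstimulated arrays, in those of Rps19 and Rps16 below them. The vertical axes differ in span and do not start at 0.

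Among bright canonical members Rps2, a small subunit protein near the mRNA entry site, rose most. Its arrays ran from 12.53 to 12.77 in unstimulated cells (median 12.72), from 12.40 to 12.72 at 4 h (median 12.55) and from 12.95 to 13.08 at 24 h (median 13.01). The 24 h arrays lay above all others. The difference was 0.32 ± 0.05 (SE), a 1.25-fold rise, with an adjusted p of 4.48e-05, and its other probe sets gave 0.29 and 0.23. The rise was 0.27 in C57BL/6, where it was not called alone (adjusted p = 0.060), 0.38 in B6.Sle1b and 0.30 in Sle1b.BAC.

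Rpl41, the smallest ribosomal protein, read 13.14 to 13.27 in unstimulated cells and 13.29 to 13.43 at 24 h, without overlap. It rose by 0.17 ± 0.05 (SE, adjusted p = 0.00382). Rpl7a read 12.43 to 12.66 and then 12.67 to 12.75, and rose by 0.16 ± 0.05 (SE, adjusted p = 0.0104). Rpl15 read 12.60 to 12.73 and then 12.74 to 12.87, and rose by 0.16 ± 0.05 (SE, adjusted p = 0.00784). These 3 rises were 1.13-, 1.12- and 1.11-fold, with all 24 h arrays above the unstimulated ones, and the calls of Rpl41, Rpl7a and Rpl15 held in all 26 fits without 1 array. The call of Rpl41 was lost with suffixless probe sets, where it is read through another set (0.08, adjusted p = 0.744), and that of Rpl7a with each array centred on its median (0.16, adjusted p = 0.0570).

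Rpl14 was the exception in size. Its 24 h arrays ran from 7.08 to 7.58 (median 7.40) against 6.39 to 7.18 in unstimulated cells, an overlap that came from C57BL/6 unstimulated 2. The difference was 0.72 ± 0.09 (SE), a 1.65-fold rise, with an adjusted p of 5.02e-07. This is the dim probe set described above, and it fell at 4 h before it rose.

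The largest fall called was that of Rps19, whose size lay between the rises of Rps2 and Rpl41. Rps19, the small subunit protein most often mutated in Diamond-Blackfan anaemia, read 12.87 to 13 in unstimulated cells (median 12.95), 12.83 to 13.03 at 4 h (median 12.90) and 12.64 to 12.84 at 24 h (median 12.73). The 24 h arrays lay below all unstimulated arrays, the nearest being C57BL/6 24 h 1. The difference was -0.22 ± 0.05 (SE, adjusted p = 0.000607), a 1.16-fold decrease.

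Rps16, a small subunit protein that, like Rps19, lies in the head of the subunit, read 12.82 to 12.98 in unstimulated cells, 12.89 to 13.02 at 4 h and 12.65 to 12.76 at 24 h. No 24 h array reached any earlier value. The difference was -0.20 ± 0.04 (SE, adjusted p = 0.00078), and the strains gave -0.22, -0.22 and -0.16. Rpl12 (-0.18, adjusted p = 0.00624), part of the base of the stalk, Rps15 (-0.17, adjusted p = 0.00636), Rpl19 (-0.16, adjusted p = 0.0061) and Rpl17 (-0.15, adjusted p = 0.00686) followed. Rps23 (-0.13), Rps21 (-0.13), Rpl13a (-0.12) and Rpl13 (-0.12) were the smallest falls called.

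The calls nearest the threshold did not hold in every fit without 1 array. In the 26 fits that each left out 1 array, 15 of the 22 calls were kept throughout. The others were Rps23 (25 fits), Rpl13a and Rps21 (22 each), Rpl7 (18), Rpl36a (14), Rpl22 (8) and Rpl13 (2), and the highest adjusted p came without C57BL/6 24 h 1 or 2 for 5 of these and without C57BL/6 unstimulated 1 for Rpl22 and Rpl36a. Without the 3 dim arrays 16 members rose and 10 fell, with Rpl13a and Rps21 no longer called and Rps9, Rps10, Rps12, Rps26, Rpl35 and Rpl36al called in addition.

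The lateral stalk recruits elongation factors, and its proteins were not called at either time. Rplp0 read 13.06 to 13.21 in unstimulated cells and 13.04 to 13.21 at 24 h, a difference of -0.005 (95% interval -0.10 to 0.09). Rplp1 differed by -0.03 (95% interval -0.12 to 0.06) and Rplp2 by 0.02 (95% interval -0.11 to 0.16). Rpsa, which is also known as the laminin receptor, differed by -0.05 (95% interval -0.14 to 0.04). Rps6, whose protein is phosphorylated downstream of mTORC1, differed by -0.06 (95% interval -0.16 to 0.04) and Rpl11, which binds MDM2 under ribosomal stress, by 0.07 (95% interval -0.03 to 0.17). For these 6 members the intervals reach 0.17 log2 upwards and -0.16 downwards.

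Markers of other cells differed between the times, in both directions. All 8 measured CD4 T cell markers were above background in every group, and their summed level was 13 to 13.1 log2 in unstimulated cells, 12.6 to 12.9 at 4 h and 12.7 to 12.9 at 24 h. The plasma cell list, 2 of 2 above background, ran from 11.2 to 12.6 in unstimulated cells and from 7.93 to 10.2 at 24 h. That sum followed Jchain, at 12.10 and 9.35. Prdm1, the other gene of the list, was higher at 24 h, at 4.47 and 4.88. The erythroid list, 3 or 4 of 4 above background, ran from 10.2 to 12.2 and then from 8.71 to 11.1, with Hba-a1 at 11.24 and 9.80. The B cell list (6 of 7 above background in every group, Pax5 at 2.45) ran from 8.19 to 9.35 and then from 7.90 to 8.97, and the neutrophil list, 6 or 7 of 7, from 6.55 to 10.1 and then from 6.16 to 9.43. The B cell marker Ms4a1 was higher at 24 h, at 6.60 and 7.27. By strain the neutrophil list ran from 6.55 to 8.07 and then from 6.16 to 6.53 in C57BL/6. In B6.Sle1b it ran from 7.07 to 9.46 and then from 7.44 to 9.43. In Sle1b.BAC it ran from 7.82 to 10.1 and then from 7.25 to 9.14. Of the neutrophil genes S100a8 was higher at 24 h, at 5.89 and 6.02, and the others were lower, with Mpo at 6.53 and 4.13. The monocyte and macrophage list, 3 to 5 of 8 above background, was higher at 24 h in B6.Sle1b, at 6.35 to 6.81 and then 7.03 to 7.19, and in Sle1b.BAC, at 6.36 to 6.72 and then 6.75 to 7.55, while C57BL/6 ran from 6.13 to 6.38 and then from 6.20 to 6.31. In that list Lyz2 read 4.36 and 5.62. Csf1r (4.03 and 4.01), Cd14 (3.69 and 3.34), Cd68 (3.30 and 3.22) and Adgre1 (3.04 and 2.93) were not higher at 24 h. C1qa, C1qb and Itgam were below background in every group. The part of these cells in the shifts of members was not tested, and in bulk RNA fewer cells of a type and less RNA per cell cannot be told apart.

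From 4 h to 24 h, of 72 members 25 were called (34.7%), against 34.6% of all genes, with 15 higher (20.5% of all genes) and 10 lower (14.1% of all genes). The 4 h arrays are shared with the first comparison and the 24 h arrays with the second, so these counts are not separate evidence. Rpl14 rose by 1.01 ± 0.09 (SE, adjusted p = 3.87e-09), Rps19bp1 by 1.0 ± 0.08 (SE, adjusted p = 2.65e-10), Rps27l by 0.80 and Rpl7l1 by 0.78. Rps2 rose by 0.45 ± 0.05 (SE), a 1.36-fold rise with an adjusted p of 5.45e-07, from the lower level of 4 h described above. Rpl39l (0.32), Rpl7a (0.26), Rpl41 (0.19), Rpl36a (0.19), Rpl15 (0.18), Rpl28 (0.18), Rpl22 (0.17), Rpl36 (0.14), Rps26 (0.13) and Rpl3 (0.12) rose as well, of which Rpl28, Rpl36, Rps26 and Rpl3 had not been called against unstimulated cells.

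Rps16 fell most from 4 h to 24 h, by 0.24 ± 0.04 (SE, adjusted p = 0.000162), followed by Rpl12 and Rps19 with 0.19 each. Rpl21 (-0.15), Rpl35a (-0.14) and Rps14 (-0.14) were called only just, with adjusted p of 0.0299, 0.0357 and 0.0373. The count of 10 falls dropped to 4 without either biological array of C57BL/6 at 24 h, to 5 without Sle1b.BAC 4 h 2, B6.Sle1b 24 h 1 or Sle1b.BAC 24 h 3, and to 6 without C57BL/6 4 h 2 or 3. Without the 3 dim arrays 15 rose and 9 fell.

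The 24 h responses of single members were alike in the 3 strains. The strains share no arrays, but their arrays may have been normalised together. Across the 62 bright canonical members the differences of C57BL/6 and B6.Sle1b correlated with r = 0.82, those of C57BL/6 and Sle1b.BAC with r = 0.87 and those of B6.Sle1b and Sle1b.BAC with r = 0.80. At 4 h the same correlations were 0.33, 0.52 and 0.21. These are descriptions across genes, which are not independent replicates. Of the 72 members 53 had the same sign in the 3 strains at 24 h (73.6%), against 62.5% of all genes, and 28 at 4 h (38.9%), against 46.1%.

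**Figure D4:**
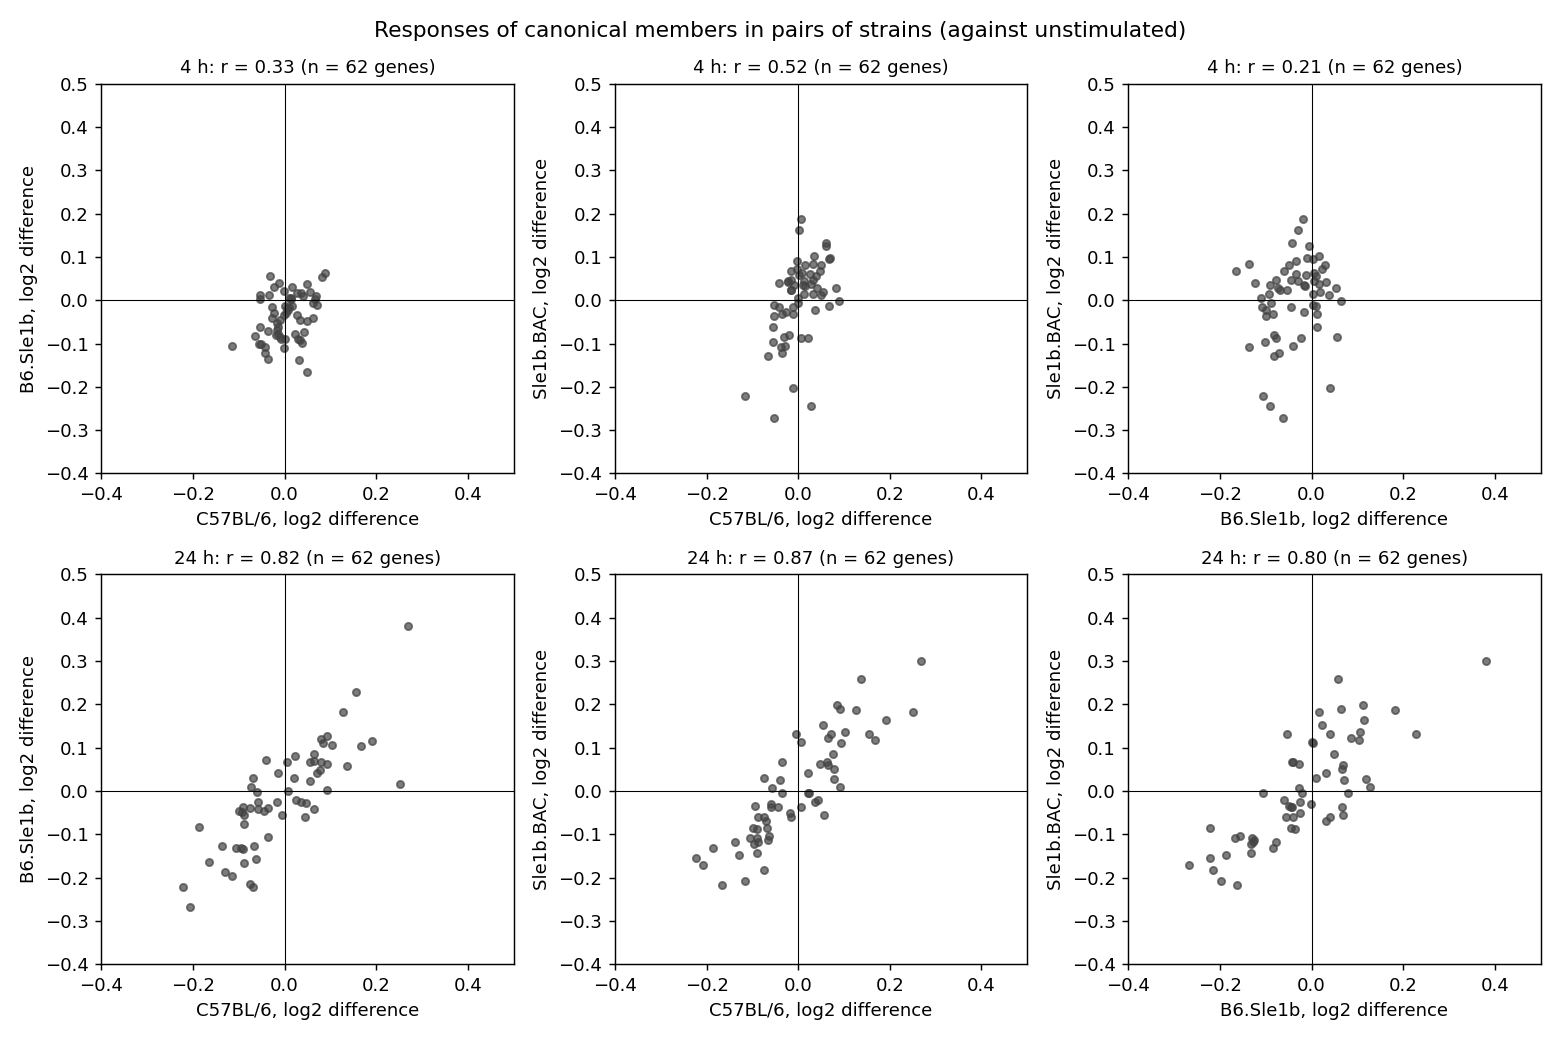
Log2 differences against unstimulated cells of the 62 bright canonical members in pairs of strains, at 4 h (top) and 24 h (bottom), 1 point per gene. At 24 h the points lie along the diagonal (r = 0.80 to 0.87), and at 4 h they gather near 0 (r = 0.21 to 0.52).

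Within single strains fewer members were called at 24 h. In C57BL/6, with 2 arrays at 24 h, 4 of 72 rose and none fell, where 24.3% of all genes were called, 15.7% higher and 8.6% lower: Rpl7l1, Rps27l, Rps19bp1 and Rpl14. In B6.Sle1b these 4, Rps2 and Rpl41 rose and Rps19, Rps16 and Rpl19 fell, 6 and 3 of 72 where 28.2% of all genes were called, 14.8% higher and 13.4% lower. With the replicate number as a block within B6.Sle1b, these 9 calls remained and Rps10 was added to the falls. In Sle1b.BAC the 4, Rps2, Rpl36a and Rpl39l rose, 7 of 72, and none fell, where 29.1% of all genes were called, 17.2% higher and 11.9% lower. A call in 1 strain and not in another is not a difference between strains, which is tested below.

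Where a gene had several probe sets they did not always move together. The 63 other probe sets of 34 members had the sign of the brightest in 47 cases at 24 h, and in the fit over all 45141 probe sets 8 of the 63 rose (12.7%) and 6 fell (9.52%). Of all 45141 sets 35.6% were called in that fit, 16.3% higher and 19.3% lower. The widest disagreements were in dim sets. A set of Rpl13 with a mean of 7.27 fell by 1.48 ± 0.07 (SE, adjusted p = 2.38e-13), from 7.68 to 7.95 in unstimulated cells to 6.21 to 6.40 at 24 h, where the bright set fell by 0.12. A set of Rpl22 with a mean of 6.49 fell by 0.86 ± 0.10 (SE, adjusted p = 1.66e-07) where the bright set rose by 0.15, and a set of Rpl15 with a mean of 8.26 rose by 0.60 ± 0.11 (SE, adjusted p = 0.000128) where the bright set rose by 0.16. The second bright set of Rpl41, with a mean of 13.08, rose by 0.32 ± 0.05 (SE), against 0.17 for the first.

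The spread of 24 h differences was smallest at both ends of the brightness scale. Probe sets of genes other than members, or of no single gene, had 24 h differences with an SD of 0.30 over a mean log2 of 12 (103 sets), against 0.85 between 10 and 12, 1.0 between 8 and 10, 1.03 between 6 and 8, 0.885 between 4 and 6 and 0.27 up to 4 (27773 sets). The 88 probe sets of members above 12 had an SD of 0.11. The median absolute difference above 12 was closer, at 0.076 for members and 0.103 for the other sets. How much of the small size of canonical shifts comes from the top of the scale was not tested. The suffixes s, x and a mark sets whose probes can match several transcripts, and they cover the brightest set of 56 members. With suffixless sets only, 32 members remained, of which 6 rose and 3 fell at 24 h; Rps2, Rpl7a, Rps19, Rps16, Rpl12 and Rps27l have no such set.

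The strain comparisons asked whether the Sle1b interval or the Slamf6-H1 transgene went with a change in ribosomal protein transcripts. None of the 72 members was called in any of the 12 strain contrasts (limma). Over the mean of the 3 times the share of all genes called was 0.333% between B6.Sle1b and C57BL/6, 0.0819% between Sle1b.BAC and B6.Sle1b and 0.228% between Sle1b.BAC and C57BL/6. At an unadjusted p under 0.05 the members that passed were 1, 0 and 5 in that order, against 5.11%, 6.09% and 6.86% of all genes. At single times, in the order unstimulated, 4 h and 24 h, the share of all genes called was 0.123%, 0.0409% and 0.0409% for B6.Sle1b against C57BL/6, 0.0819%, 0% and 0% for Sle1b.BAC against B6.Sle1b, and 0.0585%, 0.0643% and 0.0351% for Sle1b.BAC against C57BL/6. In the same order 0, 1 and 0 members passed an unadjusted 0.05 in the first (4.14%, 3.61% and 4.71% of all genes), none in the second (8.13%, 3.59% and 5.31%) and 1, 3 and 0 in the third (5.66%, 5.77% and 2.29%). The median differences of members were -0.02, -0.02 and -0.04 log2. The SE of a member's difference had a median of 0.05 in each, so shifts of a few hundredths of a log2 unit were not detectable. With adjustment over all genes much larger shifts could also go uncalled, as those of Rpl14 below did. The absence of calls does not exclude such shifts.

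Rpl14 came nearest to a strain call. Its group means were 6.85 ± 0.33 (SD, n = 3) in C57BL/6, 6.70 ± 0.09 (SD, n = 3) in B6.Sle1b and 6.42 ± 0.03 (SD, n = 3) in Sle1b.BAC unstimulated. At 4 h they were 6.67 ± 0.30 (SD, n = 3), 6.29 ± 0.07 (SD, n = 3) and 6.13 ± 0.16 (SD, n = 3) in that order, and at 24 h 7.50 ± 0.11 (SD, n = 2), 7.25 ± 0.18 (SD, n = 3) and 7.38 ± 0.04 (SD, n = 3). At 4 h alone Sle1b.BAC stood below C57BL/6 by 0.54 (95% interval -0.85 to -0.23, adjusted p = 0.271). Sle1b.BAC stood below C57BL/6 by 0.36 over the 3 times (95% interval -0.55 to -0.18, adjusted p = 0.141), and B6.Sle1b by 0.26 (95% interval -0.45 to -0.07, adjusted p = 0.634). The Sle1b.BAC difference was called with all 28 arrays (-0.41, adjusted p = 0.0247), with array brightness as a covariate (-0.36, adjusted p = 0.0496), without C57BL/6 unstimulated 1 (-0.42, adjusted p = 0.0357) and without C57BL/6 4 h 1 (-0.42, adjusted p = 0.0444). The fit of all 28 arrays counts the technical arrays of C57BL/6 at 24 h as further replicates. With those averaged as 1 array the difference was not called. Rpl36 (-0.13), Rpl29 (-0.12), Rps9 (-0.13) and Rps15 (-0.11) were the others under an unadjusted 0.05, with adjusted p from 0.442 to 0.696.

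The response to anti-CD3 was compared between strains in 6 interaction contrasts, and none of the 72 members was called (limma). All genes were called at 0% in 5 of these contrasts and at 0.00585%, 1 gene, in the sixth, the 24 h response of Sle1b.BAC against B6.Sle1b. At an unadjusted p under 0.05, Rps19bp1 passed in that contrast, with a rise larger by 0.43 in Sle1b.BAC (95% interval 0.06 to 0.80, adjusted p = 0.934). Rps15a, whose probe set is next to background, passed in the 4 h contrast of Sle1b.BAC against C57BL/6. Of all genes 5.11% and 3.88% passed in these 2 contrasts, and in the others, where no member did, 2.2% and 4.8% for B6.Sle1b against C57BL/6 at 4 h and 24 h, 5.28% for Sle1b.BAC against B6.Sle1b at 4 h and 1.84% for Sle1b.BAC against C57BL/6 at 24 h. Intervals of the other interactions were wide beside the canonical shifts, and the median SE of a member was 0.11 to 0.12.

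Genes outside the member set are given by lists, beside shares of all genes of 22.9% higher and 17.4% lower at 24 h and 8.15% higher and 10.1% lower at 4 h. Of 33 nucleolar biogenesis factors 30 rose at 24 h and none fell, with a median difference of 1.49 (0.01 for members, 0.06 for all genes). Dkc1, the pseudouridine synthase of box H/ACA particles, rose by 2.35 ± 0.06 (SE, adjusted p = 1.16e-17), Ubtf, a factor of RNA polymerase I, by 1.49, and Fbl, the methyltransferase of box C/D particles, by 1.43. At 4 h 17 of the 33 had risen and 1 had fallen, with a median of 0.32 and Dkc1 at 0.84. Chaperones and hydroxylases of single ribosomal proteins rose at 24 h in 9 of 9 cases, with a median of 1.26. Among them Grwd1, a chaperone of Rpl3, rose by 2.16 ± 0.14 (SE, adjusted p = 2.7e-11) and Bccip, which serves Rpl23, by 1.26 ± 0.06 (SE, adjusted p = 3.65e-14), whereas Rpl3 differed by 0.04 (95% interval -0.06 to 0.14).

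Proteins of the mitochondrial ribosome, encoded by separate nuclear genes, rose as well. At 24 h 71 of 73 rose and none fell, with a median of 1.0, and at 4 h 18 rose and 5 fell, with a median of 0.12. Mrpl17 rose by 1.77 ± 0.07 (SE, adjusted p = 8.44e-15) and Mrps15 by 1.46 ± 0.07 (SE, adjusted p = 3.65e-14). Their probe sets were dimmer, with a median mean log2 of 7.76 against 12.80 for members, so the 2 kinds of ribosomal protein were read on different parts of the scale.

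Other messenger RNAs with a known TOP start showed both kinds of value. Of 15, 8 rose and 2 fell at 24 h, with a median of 0.23. Nap1l1, a histone chaperone, rose by 1.05 ± 0.06 (SE, adjusted p = 1.27e-12), Npm1 by 0.79 and Eef1g by 0.73, Eif3f fell by 1.44, and Eef1a1 differed by 0.04. Fau, which encodes small subunit protein eS30 fused to a ubiquitin-like protein, fell by 0.18 ± 0.05 (SE, adjusted p = 0.00413).

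Regulators of ribosome production and of translation follow. In the list of MYC and its partners 2 of 8 rose and 4 fell at 24 h: Myc rose by 2.26 at 4 h and 2.84 ± 0.15 at 24 h (SE, adjusted p = 5.83e-13), and its antagonists Mxd4 and Mxi1 fell by 3.37 and 2.32 at 24 h. In the list of mTORC1 and LARP1 4 of 15 rose and 5 fell, the rises near the share of all genes. Larp1 rose by 1.13 ± 0.12 (SE, adjusted p = 6.84e-08) and Eif4ebp1, a translation repressor that mTORC1 inactivates, by 1.37 ± 0.13 (SE, adjusted p = 9.94e-09), while Sesn1, an inhibitor of mTORC1, fell by 1.55 ± 0.10 (SE, adjusted p = 1.46e-11). The lists were chosen with earlier results of these data known and are described by counts only.

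**Figure D5:**
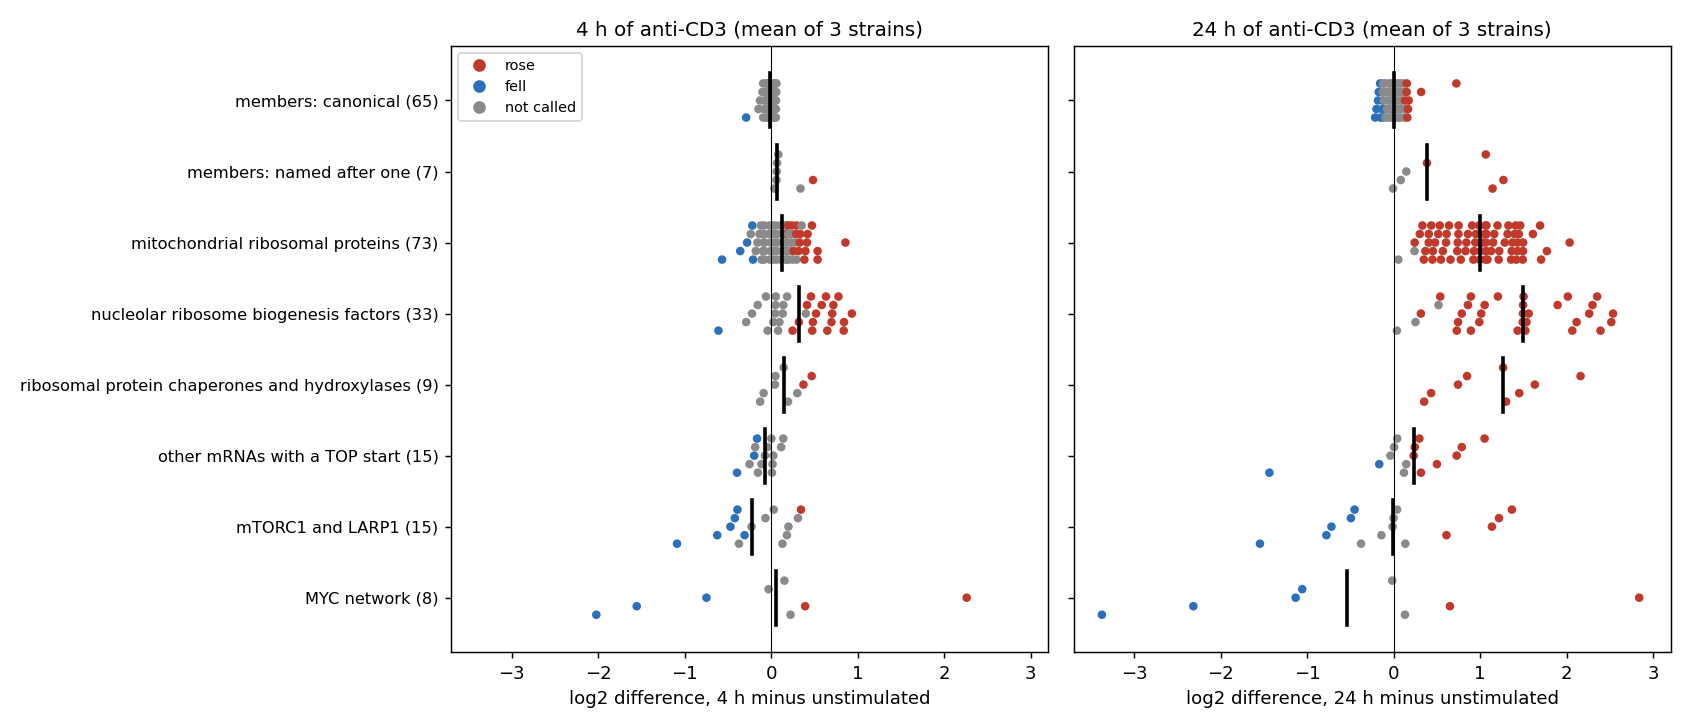
Log2 differences against unstimulated cells at 4 h (left) and 24 h (right), 1 point per gene, for the 65 canonical members, the 7 members named after a ribosomal protein and 6 other lists; black bars are medians and colours mark calls. At 24 h canonical members gather around a median of -0.002, while mitochondrial ribosomal proteins (1.0), biogenesis factors (1.49) and chaperones (1.26) lie to the right.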

How the data were processed

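Total RNA from 28 samples of CD4+ T cells was measured on 28 Affymetrix HT MG-430 PM arrays. Linear intensity values of 45141 probe sets were deposited by the authors, who used RMA per the submitters' processing notes; its version is not given in the sources used here. The RMA method corrects background, quantile normalises and summarises probes, so a change shared by all RNA is not seen, and sequencing depth does not apply: the number of arrays limits the precision. Log2 was taken, with no filter or pseudocount.

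Genes were named from the platform table (28898 probe sets with 1 symbol, 551 with several, 15692 with none) and represented by the probe set of highest mean log2. All 72 members were found in RefSeq under the same symbol. limma 3.58.1 (R 4.3.3) fitted 9 group means to the 26 biological arrays, with 30 contrasts, eBayes and Benjamini-Hochberg adjustment over 17097 genes; calls are at 0.05 and intervals at 95%. The fit was tested on simulated data. No 2 arrays were identical.

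Members and lists were chosen with earlier results of these data known, and the comparison with genes of like brightness after the values were seen. Named genes were the 8 largest rises and 8 largest falls per activation contrast with the same sign in the 3 strains, members outside the canonical set, stalk proteins, Rpsa and up to 4 genes per other list; Rps6, Rpl11, other called members, the dim probe sets and the members nearest a strain call were named after their values were seen. Alternatives covered probe set choice, normalisation, a filter on dim probes, weights, technical arrays, samples in the fit, replicate blocks and leaving out arrays.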

Additional observations from a re-analysis of the deposited data

How the results depend on the processing

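Most of the 26 fits that each left out 1 array kept each count within 1.5 times. So did most of the 14 alternatives, except for the counts at 4 h. There the rises moved beyond that in 10 of the 14 and the falls in 7. At 4 h, 1 rise became 2 with all 28 arrays, technical arrays averaged, array weights, brightness as a covariate, each array centred on its median, a mean log2 over 6, a further quantile normalisation, a random replicate block, trend and robust moderation, or without the 3 dim arrays, and Rps27l was the second each time; leaving out arrays gave 1 to 2. The 1 fall at 4 h became 0 after the further quantile normalisation, 2 with array weights, the random block or without the 3 dim arrays, and 3 with a mean over 6, trend and robust moderation or the mean of all probe sets; leaving out arrays gave 1 to 3. With suffixless probe sets the 12 rises and 10 falls at 24 h became 6 and 3, and the 15 and 10 from 4 h to 24 h became 8 and 0, with 32 members measured; Rpl21, read there through another probe set, reversed to 0.0756 (adjusted p = 0.684). Trend and robust moderation gave 16 falls in both comparisons. With the mean of all probe sets Rpl22, a rise at 24 h in the main fit, was called as a fall. Falls from 4 h to 24 h were 6 with each array centred on its median or with only the groups compared. Leaving out arrays gave 9 to 16 rises and 7 to 11 falls at 24 h, and 11 to 16 rises and 4 to 10 falls from 4 h.

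Between Sle1b.BAC and C57BL/6, 1 member was called with all 28 arrays or brightness as a covariate (Rpl14), and with the mean of all probe sets or suffixless sets (Rps6). With the technical arrays averaged as 1 array no member was called. Leaving out arrays gave 0 to 1. Interactions gave 4 calls with array weights, for Rpl14, Rps27l at both times and Rps19bp1, and 0 to 0 when arrays were left out. The share of all genes called in the interactions with array weights was not counted, so these calls cannot be set against it. The cause of these changes was not tested.

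Over the 3 strains replicate numbers did not pair the samples uniformly. Of 25 same-numbered pairs within a strain, with correlations from -0.36 to 0.82, 15 correlated above 0.1. In B6.Sle1b alone all 9 pairs did (0.144 to 0.734), against 2 of 7 in C57BL/6 and 4 of 9 in Sle1b.BAC. Whether part of the samples were paired is not settled by these values, and the main fit holds no replicate block. A replicate block within B6.Sle1b, chosen after seeing the data, gave 6 rises and 4 falls in place of 6 and 3 at 24 h, and changed no call of a member at 4 h or between 4 h and 24 h. With the number as a fixed replicate block 12 members rose and 9 fell at 24 h, and with a random block 14 and 11. Signal over background limits Rpl3l, Rps15a and Rpl39l, and small shifts of bright members lie close to the SE.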
